A study of Mus musculus with 9 samples.

Results

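Axon guidance ligands and receptors were followed in mouse embryonic stem cells (ESCs) in which a forced E2A homodimer was switched on with doxycycline (dox). The set was defined by gene symbol alone, as protein-coding genes of the Eph, ephrin, semaphorin, plexin, neuropilin, Robo, Slit, netrin and Unc5 families together with Dcc and Neo1. It held 73 of the 47729 genes in the expression table. These 73 entries carried 71 symbols, because Ntn5 was listed under 3 identifiers, and comprised 38 ligand and 35 receptor entries. RNA was sequenced from 1 inducible ESC line kept in LIF/serum, untreated (0 h) or after 18 h or 24 h of dox at 1 µg/ml, with 3 replicates at each of the 3 time points. The transgene encodes E47, a splice form of the E2A gene Tcf3, as a pair of tethered copies, and the untreated cells carry it too. No dox-treated library without the transgene was analysed here, so an effect of dox cannot be told apart from that of the homodimer. The study sequenced these cells to look for genes that act upstream of Sox1, and it first saw Sox1 protein at 24 h. The guidance genes address how the cell-surface signalling repertoire of the cells changed over these hours.

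Guidance families signal between neighbouring cells or over short distances. Ephrins are membrane-bound ligands of the Eph receptor tyrosine kinases, with A-type ephrins anchored by a lipid and B-type ephrins spanning the membrane. Class 3 semaphorins are secreted and act through neuropilins and plexins, whereas the other vertebrate semaphorins sit on the membrane and mostly bind plexins directly. Slits bind Robo receptors, and netrins bind Dcc, neogenin (Neo1) and the Unc5 receptors. These proteins steer growing axons, and the same families shape cell sorting, migration and vessel growth in embryos. E2A is a basic helix-loop-helix factor that binds E-boxes, which have the letters CANNTG.

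Levels are given as FPKM, read fragments scaled for gene length and for the reads mapped in each library, so they can be set side by side between genes. Tests used log2(FPKM+0.1) in limma over the 17951 genes with a mean of at least 0.1 FPKM. A gene was called when its Benjamini–Hochberg adjusted p was at most 0.05 and its log2 fold-change (logFC) at least 1 in size. LogFC values are on the log2(FPKM+0.1) scale, which understates the change of low genes, and are followed by ± s.e. Libraries held between 22028363 and 26471569 reads on genes. Tcf3 itself, whose reads include those of the transgene, had 37.7 to 41.2 FPKM at 0 h, 106.6 to 116.5 at 18 h and 93.6 to 108.4 at 24 h, so every library sat on the side its label gives.

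The stretch just upstream of the annotated start is shown for 5 members to set out the E-box letters of genes that were higher and genes that were lower under dox. Efnb1 and Plxnd1 were called higher under dox, Sema3e was higher by less than 2-fold, and Epha1 and Epha2 were lower by less than 2-fold. Each sequence is the 250 bases before the RefSeq start in GRCm38.p6, written 5′ to 3′ on the gene's strand, with any CANNTG in capitals.
Efnb1, chrX:99135811-99136060, plus strand: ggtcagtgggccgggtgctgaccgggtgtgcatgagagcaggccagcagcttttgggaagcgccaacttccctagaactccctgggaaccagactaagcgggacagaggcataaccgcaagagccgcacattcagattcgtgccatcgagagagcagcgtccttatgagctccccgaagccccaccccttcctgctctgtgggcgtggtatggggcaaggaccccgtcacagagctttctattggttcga
Plxnd1, chr6:115995006-115995255, minus strand: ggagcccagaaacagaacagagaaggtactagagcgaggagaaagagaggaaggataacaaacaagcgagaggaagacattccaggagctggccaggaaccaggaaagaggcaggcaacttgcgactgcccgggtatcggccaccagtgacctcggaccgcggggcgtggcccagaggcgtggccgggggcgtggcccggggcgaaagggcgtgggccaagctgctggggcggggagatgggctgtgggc
Sema3e, chr5:14025026-14025275, plus strand: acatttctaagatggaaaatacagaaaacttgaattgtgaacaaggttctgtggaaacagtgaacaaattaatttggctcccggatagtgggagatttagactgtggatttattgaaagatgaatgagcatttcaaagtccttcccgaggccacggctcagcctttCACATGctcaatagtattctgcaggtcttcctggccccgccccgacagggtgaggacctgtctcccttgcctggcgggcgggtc
Epha1, chr6:42373269-42373518, minus strand: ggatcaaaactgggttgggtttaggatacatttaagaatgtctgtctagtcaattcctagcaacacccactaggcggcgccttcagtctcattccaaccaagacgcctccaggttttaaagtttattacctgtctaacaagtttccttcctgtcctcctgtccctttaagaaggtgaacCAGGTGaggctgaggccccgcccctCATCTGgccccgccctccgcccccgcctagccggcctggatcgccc
Epha2, chr4:141300971-141301220, plus strand: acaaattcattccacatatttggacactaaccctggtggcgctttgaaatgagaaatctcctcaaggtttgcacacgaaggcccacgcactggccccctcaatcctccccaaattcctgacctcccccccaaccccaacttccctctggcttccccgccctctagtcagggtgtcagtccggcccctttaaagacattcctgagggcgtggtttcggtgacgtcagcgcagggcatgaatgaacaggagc
The Efnb1, Plxnd1 and Epha2 stretches held no CANNTG, nor did those of Epha3 and Sema5b, which are not shown. The Sema3e stretch held 1, CACATG, and the Epha1 stretch held 2, CAGGTG and CATCTG, beginning 84, 71 and 46 bases before the start, respectively. Of the 71 symbols, 61 had an entry in the promoter table, with 77 windows between them. Sema3f, also called higher at 24 h, had no entry, so its letters were not read. CANNTG, which reads the same on both strands, was found in 48.1% of these 77 windows and in 66.2% of all 32851 windows of the same 250 bases. Over the full windows, which add 50 bases after the start, CAGGTG (searched also as CACCTG) was in 13% of member windows and 20.2% of all windows, and CAGCTG in 15.6% and 16.3%. Both are forms of CANNTG. A match is only a description of letters, and its absence says nothing of E2A binding elsewhere.

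Epha2 and Epha1 alone held 99.7±10.5 of the 302.9±32.9 FPKM that the members summed to in untreated ESCs (mean±s.d., n=3). Of the 73 entries, 56 had a mean of at least 0.1 FPKM over the 9 libraries and were tested, 39 had at least 1 FPKM and 9 at least 10 FPKM. The 9 were, in order of mean FPKM over the 9 libraries, Epha2 (52.3), Plxna1 (25.7), Epha1 (25.6), Unc5b (18.6), Sema3e (18.4), Plxnb2 (18.4), Sema6a (13.8), Ephb4 (11.3) and Efnb2 (10.2). Plxna1 and Epha1, and then Unc5b, Sema3e and Plxnb2, lay closer together than their spread between replicates. Plxnb1 was the 10th at 8.82 FPKM. Epha1 stood next to Epha2 at 0 h and behind Plxna1 and Sema3e at 24 h. Entries below the test's minimum included Dcc, the classical netrin receptor, with 0 reads in all 3 untreated libraries, and the highest value of any of the 17 in a library was 0.2102 FPKM.

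**Figure D1:**
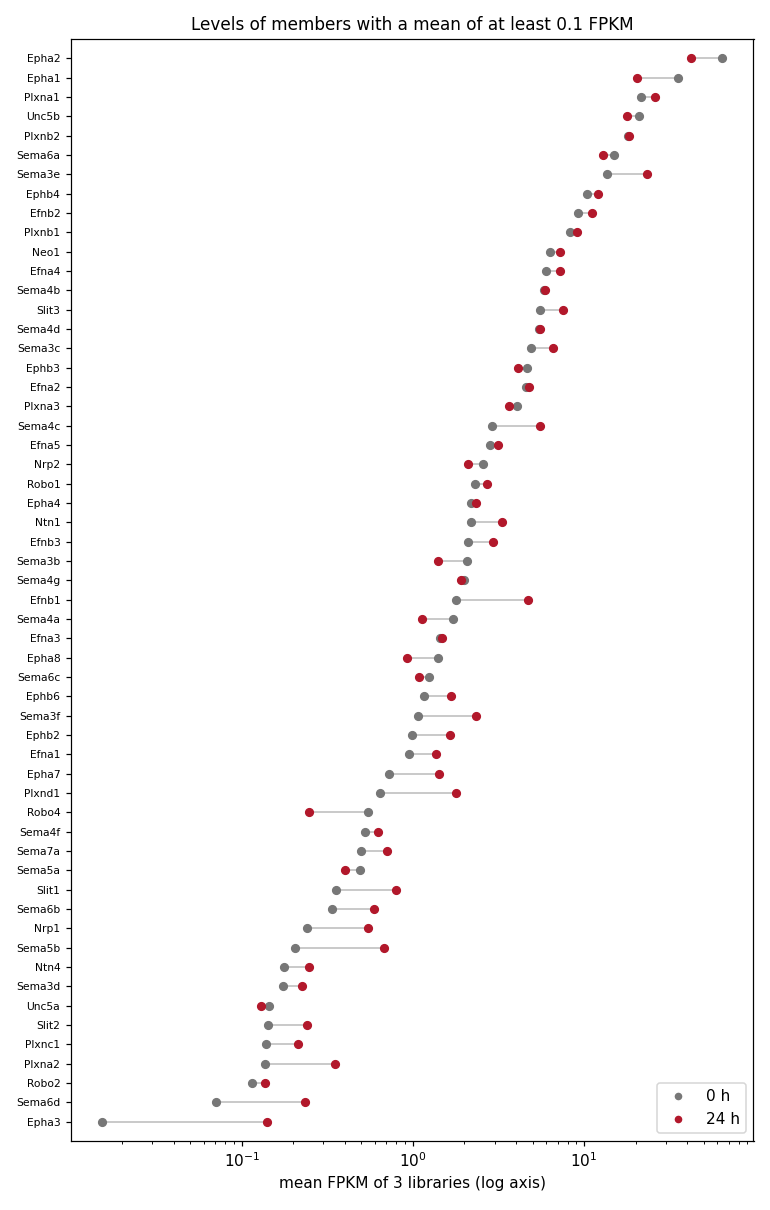
Mean FPKM of 3 libraries at 0 h (grey) and 24 h (red) for the 56 members with a mean of at least 0.1 FPKM over all libraries, on a log axis, ordered by the mean at 0 h. Epha2 is highest at both time points, Epha3 is lowest at 0 h, and the line between the points spans the change.

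At 24 h of dox, 5 members were called higher and 0 lower, against 2.07% and 0.836% of all genes tested. The 5 were the ligands Efnb1, Sema3f and Sema5b and the receptors Plxnd1 and Epha3. At 18 h, Plxnd1 and Epha3 were called higher, 2 of 56, and 0 were lower, against 1.33% and 0.724% of all genes. Epha3 and Sema6d reached the FPKM minimum only through their dox libraries, and without these 2 the calls were 4 of 54 at 24 h and 1 of 54 at 18 h. On the adjusted p alone, 13 members were higher and 3 lower at 24 h, against 6.52% and 5.11% of all genes, and 10 were higher and 2 lower at 18 h, against 4.27% and 3.72%. Without Epha3 and Sema6d the higher counts were 12 and 9 of 54. The 24 h count depended on single libraries, with 10 calls without 0 h replicate 3 and 3 without 24 h replicate 2, and at 18 h there was 1 call without 0 h replicate 1, 18 h replicate 2 or 18 h replicate 3. The comparisons at 18 h and 24 h share the 0 h libraries and are set side by side, not counted as separate support. The median logFC of the 56 tested members was 0.156 at 18 h and 0.238 at 24 h, beside -0.003 and 0.004 for all genes tested. Over all 73 entries with no filter it was 0.117 and 0.175, and it kept these values with Dcc and Ntng1, which had 0 recovered reads at 0 h, set to their lower bound. An Ntn5 entry listed at 0 FPKM in the untreated libraries had no recovered reads and kept its fitted value.

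**Figure D2:**
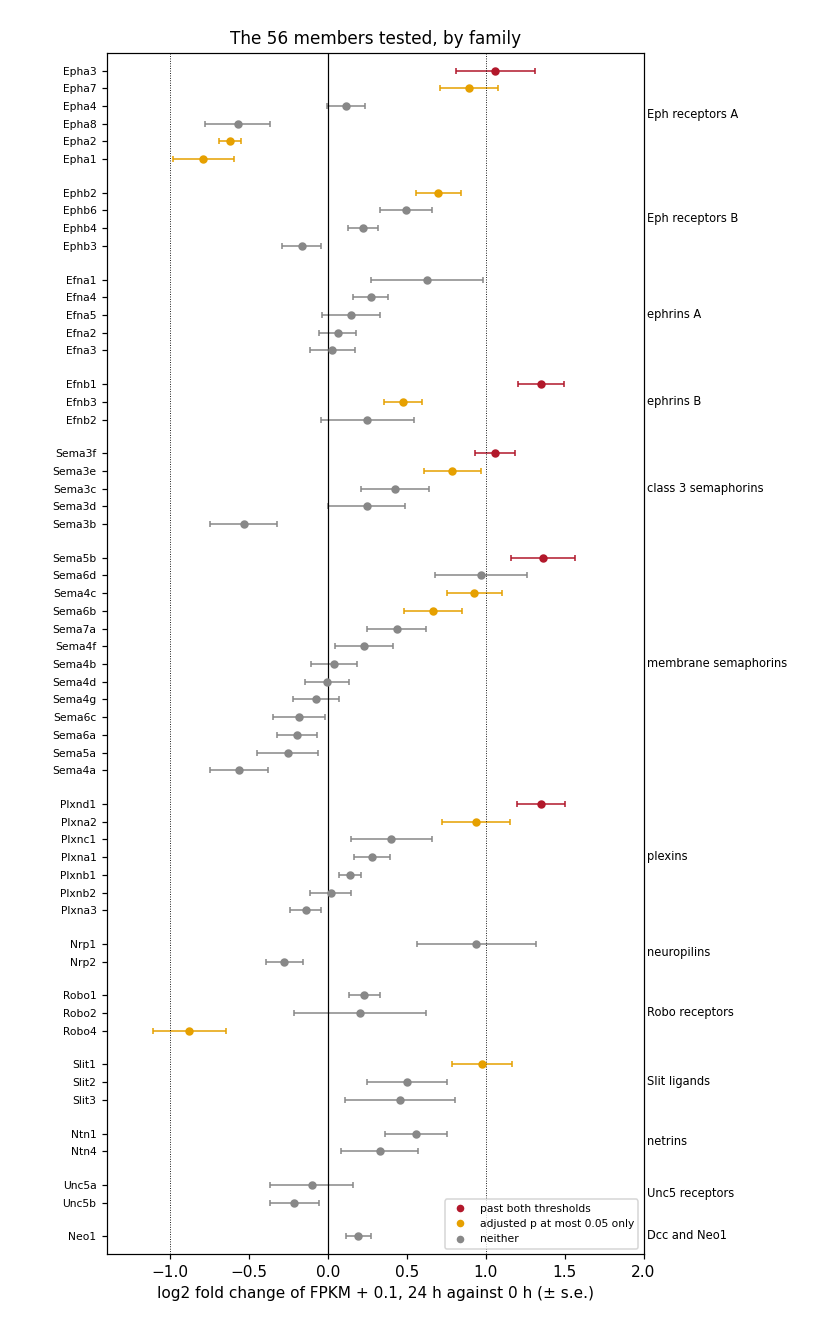
LogFC of FPKM+0.1 at 24 h against 0 h with its standard error for the 56 tested members, grouped by family. Red points passed both thresholds (5 members, all to the right), orange points passed the adjusted p alone, and dotted lines mark a logFC of 1 in each direction.

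Of the 3 ephrin-B ligands, Efnb1 was called higher at 24 h and Efnb3 passed the adjusted p alone. Efnb1 (chrX:99136130-99148991, plus strand, GRCm38) encodes ephrin B1, an X-linked ligand known for sorting cells at tissue boundaries. Its FPKM was 1.47, 2.03 and 1.82 untreated, 3.23, 3.31 and 3.88 after 18 h, and 4.22, 4.38 and 5.42 after 24 h in replicates 1, 2 and 3. Every dox library lay above every untreated one, and every 24 h library above every 18 h one. The logFC was 1.35±0.15 at 24 h (limma adjusted p = 0.0012) and 0.94±0.15 at 18 h (adjusted p = 0.00708), the latter just under the fold threshold. Efnb3, which binds EphB receptors, was higher by 0.47±0.12 at 24 h (adjusted p = 0.0385). Efnb2, the most abundant of the 3 and best known as a marker of arteries, had 9.18±2.30 FPKM untreated and 11.1±3.71 after 24 h (mean±s.d., n=3), and these groups overlapped. Its logFC at 24 h was 0.25 (adjusted p = 0.623, and 0.0365 with the replicate number as a block), so with the block all 3 ephrin-B genes passed the adjusted p at 24 h. In that fit 13.6% of all genes were higher on the adjusted p alone. Without the block, the Efnb2 value was 0.02 without 24 h replicate 3, 0.03 without 0 h replicate 1, 0.39 without 0 h replicate 3 and 0.51 without 24 h replicate 1. Together the ephrin-B genes summed to 13.1±2.82 FPKM untreated, 16.6±3.41 after 18 h and 18.7±4.53 after 24 h.

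None of the 5 ephrin-A ligands passed the adjusted p at either time. Of all genes tested, 6.52% were higher and 5.11% lower on it at 24 h, so none of 5 is near that share. Efna4, the highest, had 5.96±0.67 FPKM untreated and 7.22±0.82 after 24 h. The 5 summed to 15.7±1.59, 16.3±0.69 and 18.0±0.98 FPKM at 0, 18 and 24 h. Efna1, Efna3 and Efna4 lie near each other on chromosome 3, with 32.8 kb and 10.4 kb between them, and their logFC values at 24 h were 0.63±0.35, 0.03±0.14 and 0.27±0.11 (adjusted p = 0.279, 0.925 and 0.145). Efna1 spread from 0.458 to 1.61 FPKM in the untreated libraries, the highest of which exceeded every 24 h library, and its logFC was 0.25 without 0 h replicate 1 and 1.06 without 0 h replicate 3 (adjusted p = 0.0388).

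Among the EphA receptors the abundant Epha2 and Epha1 were lower on the adjusted p alone, and the scarce Epha3 was called higher. Epha2 (chr4:141301240-141329384, plus strand), known from epithelia and the early embryo, had 63.1, 63.8 and 66.0 FPKM untreated, 46.7, 55.9 and 49.6 after 18 h, and 39.7, 42.5 and 43.3 after 24 h. The 3 time points did not overlap, and the logFC was -0.62±0.07 at 24 h (adjusted p = 0.00144) and -0.35±0.07 at 18 h (adjusted p = 0.0216). Epha1 (chr6:42358487-42373268, minus strand) had 26.5, 35.3 and 44.6 FPKM untreated and 16.1, 21.5 and 23.2 at 24 h, a logFC of -0.79±0.19 (adjusted p = 0.0328), with 18.4, 22.9 and 22.1 at 18 h (adjusted p = 0.0545). With the replicate number as a block, the adjusted p of Epha1 at 18 h was 0.00251. Both changes were smaller than 2-fold, so neither receptor was among the calls. The span of Epha1 overlaps that of Zyx on the opposite strand, and how strand was treated in the counting is not given in the sources used here. In all, the spans of 32 members overlap opposite-strand genes, among them Epha7, Plxna1, Sema3e, Sema4c, Sema5b, Sema6d and Unc5c.

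Epha3 (chr16:63543534-63864175, minus strand) moved the other way from a very low level. It had 2 reads in each untreated library, 21, 27 and 24 reads at 18 h, and 23, 19 and 20 reads at 24 h, or at most 0.191 FPKM in any library. The ratio of summed reads, scaled for depth, was 11.9 at 18 h (95% exact interval 5.21 to 33.5) and 9.51 at 24 h (4.13 to 26.9), intervals that cover counting error only. Its fitted logFC was 1.26±0.25 at 18 h (adjusted p = 0.0188) and 1.06±0.25 at 24 h (adjusted p = 0.0283). It entered the test only through its dox libraries, and leaving out 1 library often ended the call. At 24 h the adjusted p was 0.0508 to 0.0729 without 0 h replicate 1 or 3 or without any of the 24 h libraries, and at 18 h it was 0.051 to 0.0728 without 0 h replicate 1 or 18 h replicate 2 or 3. The 24 h logFC was 0.89 with quantile normalization and 0.98 with median centring. Epha7, known like Epha3 from the mapping of axons, had 0.577, 0.742 and 0.866 FPKM untreated and 1.29, 1.59 and 1.40 after 24 h (logFC 0.89±0.19, adjusted p = 0.0175). Epha4 stayed between 1.95 and 2.55 FPKM in the 9 libraries, and Epha8 went from 1.40±0.15 to 0.92±0.24 FPKM without passing the adjusted p (0.106; 0.025 with the replicate block).

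The EphA sum, with 9 entries, was 104.2±10.3 FPKM untreated, 76.7±7.16 after 18 h and 67.0±5.59 after 24 h, with no overlap between 0 h and either dox time. Epha1 and Epha2 held 95 to 96.3% of it in the untreated libraries and 91.8 to 93.2% at 24 h. The sum of Epha3, Epha4 and Epha7 was 2.92±0.22 FPKM untreated and 3.92±0.16 after 24 h. Of the 4 EphB receptors tested, which bind ephrin B ligands, none was lower on the adjusted p in limma, with or without the block. Of all genes, 5.11% were lower at 24 h without the block and 12.5% with it. Ephb3 was lower at 18 h in edgeR with the block (logFC -0.22, adjusted p = 0.0361). Ephb6 had a limma logFC of 0.56±0.17 at 18 h (adjusted p = 0.0718, and 0.0318 with the block). At 24 h its logFC was 0.49±0.17 (adjusted p = 0.0881, and 0.0421 with the block). Ephb2 had 0.968, 0.869 and 1.12 FPKM untreated and 1.59, 1.60 and 1.78 after 24 h (logFC 0.70±0.14, adjusted p = 0.0175). Ephb4, the most abundant and known for its role in veins, had 10.4±1.40 FPKM untreated and 12.1±0.15 after 24 h (adjusted p = 0.155). Ephb2 and Epha8 lie 93.4 kb apart on the same strand of chromosome 4 and had logFC values of 0.70 and -0.57 at 24 h.

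**Figure D3:**
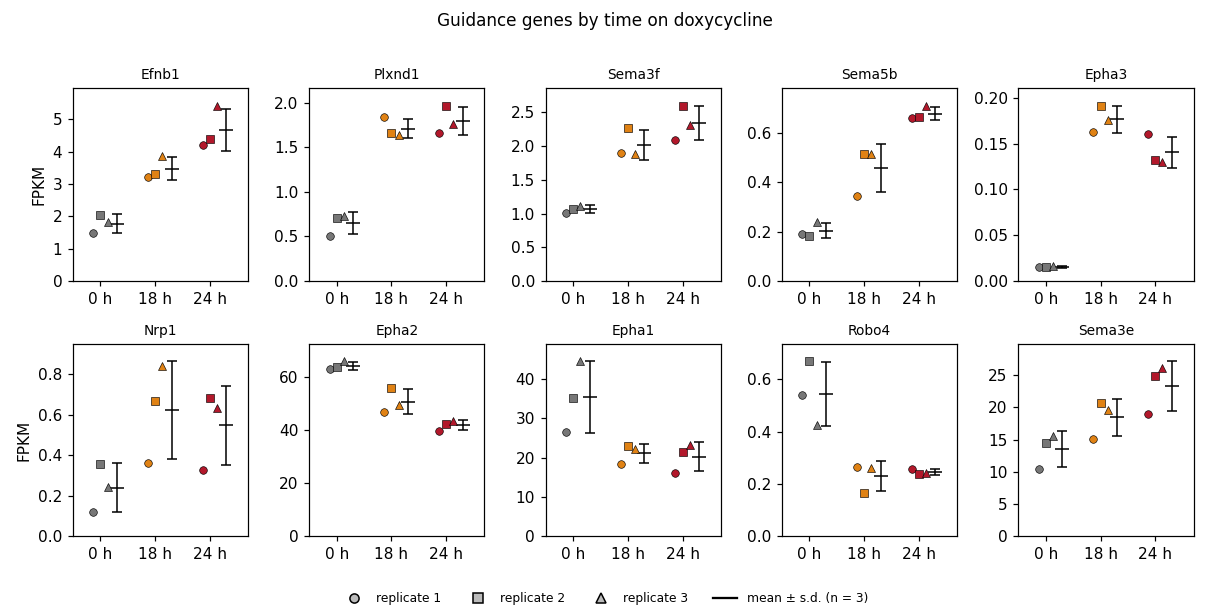
FPKM of 10 guidance genes in each library at 0, 18 and 24 h of dox, with markers for replicates 1, 2 and 3 and bars for the mean±s.d. (n=3), each axis starting at 0. Efnb1, Plxnd1, Sema3f, Sema5b and Epha3 have every dox library above every untreated one, Epha2, Epha1 and Robo4 have every dox library below, and the time points of Nrp1 overlap at 24 h.

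Of the secreted semaphorins, Sema3f was called higher at 24 h and Sema3e passed the adjusted p alone. Sema3f (chr9:107681500-107710475, minus strand), a repulsive ligand that acts through neuropilin 2, had 1.01, 1.07 and 1.11 FPKM untreated, 1.89, 2.27 and 1.89 after 18 h, and 2.10, 2.60 and 2.32 after 24 h. No dox library overlapped an untreated one. Its logFC was 1.06±0.13 at 24 h (adjusted p = 0.00179) and 0.86±0.13 at 18 h (adjusted p = 0.00594). The 24 h value is close to the fold threshold and fell just under it, at 0.98, when libraries were centred on their medians, at 0.98 without 24 h replicate 2 and at 0.998 with quantile normalization. Sema3e, the highest of the class and a ligand that binds plexin D1 without needing a neuropilin, had 10.4, 14.5 and 15.6 FPKM untreated, 15.2, 20.7 and 19.5 after 18 h, and 18.9, 24.8 and 26.1 after 24 h. Its logFC was 0.79±0.18 at 24 h (adjusted p = 0.0257), with no overlap between 24 h and 0 h. At 18 h it was 0.45±0.18 (adjusted p = 0.157, and 0.00227 with the replicate block). Sema3e and Sema3f are different in scale, since the gain in mean level was from 13.5 to 23.3 FPKM for Sema3e and from 1.07 to 2.34 FPKM for Sema3f. Sema3c had 4.86±1.23 FPKM untreated and 6.54±1.41 after 24 h (adjusted p = 0.232, and 0.0131 with the block).

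Sema3b lies 72.3 kb from Sema3f on the same strand of chromosome 9, and had 2.06±0.40 FPKM untreated, 1.14±0.18 after 18 h and 1.40±0.38 after 24 h. The adjusted p was 0.0518 at 18 h and 0.134 at 24 h, and 0.00377 and 0.0114 with the replicate block. The summed class 3 semaphorins, 7 entries, came to 21.8±4.15 FPKM untreated, 26.8±4.05 after 18 h and 33.9±5.72 after 24 h, with no overlap between 0 h and 24 h.

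Of the 13 membrane semaphorins, 1 was called higher at 24 h and 2 others passed the adjusted p alone. Among all genes tested, 2.07% were called higher and 6.52% were higher on the adjusted p alone. Sema5b (chr16:35541145-35664732, plus strand), a transmembrane semaphorin with thrombospondin repeats, had 0.190, 0.182 and 0.240 FPKM untreated, 0.346, 0.516 and 0.514 after 18 h, and 0.661, 0.664 and 0.711 after 24 h. The 3 time points did not overlap. Its logFC was 1.36±0.20 at 24 h (adjusted p = 0.00497) and 0.87±0.20 at 18 h (adjusted p = 0.0347). Sema4c, a ligand of plexin B2, had 2.18, 3.14 and 3.40 FPKM untreated and 4.93, 5.71 and 6.01 after 24 h (logFC 0.93±0.17, adjusted p = 0.0117). Sema6b was higher by 0.67±0.19 at 24 h with an adjusted p of 0.0499, at the threshold. Sema4a had 1.71±0.04 FPKM untreated, 1.13±0.30 after 18 h and 1.13±0.14 after 24 h, with every dox library below every untreated one. Its logFC was -0.58±0.18 at 18 h and -0.57±0.18 at 24 h (adjusted p = 0.0858 and 0.078, and 0.0333 and 0.0315 with the replicate block). The block also brought Sema6c (logFC -0.52, 0.0849 to 0.0436) and Sema7a (0.71, 0.0515 to 0.0275) past the adjusted p at 18 h. Sema6a, the most abundant, had 14.9±2.29 FPKM untreated and 12.9±1.25 after 24 h (adjusted p = 0.351). The sum of the 13 was 36.1±2.27 FPKM untreated and 37.3±0.38 after 24 h.

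Plxnd1 was the semaphorin receptor with the largest fitted change. The gene (chr6:115954811-115995005, minus strand) encodes plexin D1, known for vascular patterning and as the receptor of Sema3e. Its FPKM was 0.505, 0.702 and 0.731 untreated, 1.83, 1.65 and 1.64 after 18 h, and 1.66, 1.97 and 1.76 after 24 h. The untreated and dox libraries were well apart, and the 18 h and 24 h libraries overlapped. The logFC was 1.29±0.16 at 18 h (adjusted p = 0.00242) and 1.35±0.16 at 24 h (adjusted p = 0.00144). At 24 h the receptor was below 2 FPKM in every library and its ligand Sema3e was at 18.9 FPKM or more.

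Among the other plexins, Plxna2 was higher by 0.94±0.22 at 24 h (adjusted p = 0.026), from 0.137±0.040 to 0.349±0.007 FPKM. Plxna1, the most abundant plexin and a co-receptor with neuropilins for class 3 semaphorins, had 21.4±2.39 FPKM untreated, 29.8±3.68 after 18 h and 25.9±2.54 after 24 h. It passed the adjusted p at 18 h (logFC 0.47±0.12, adjusted p = 0.0399) and not at 24 h (0.28±0.12, adjusted p = 0.154, and 0.0132 with the replicate block). The test of 24 h against 18 h called no member, so the 2 time points were not shown to differ. Plxnb1 and Plxnb2, receptors of class 4 semaphorins, had 8.29±0.51 and 18.1±3.11 FPKM untreated and 9.14±0.34 and 18.2±1.95 after 24 h. The plexin sum was 52.8±5.13, 63.6±4.88 and 59.3±4.86 FPKM at 0, 18 and 24 h.

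The neuropilins, which bind class 3 semaphorins and VEGF, were low. Nrp1 had 0.121, 0.360 and 0.241 FPKM untreated, 0.363, 0.666 and 0.840 after 18 h, and 0.327, 0.683 and 0.634 after 24 h. Replicate 1 was the lowest at each time point, and the lowest 18 h library barely exceeded the highest untreated one. At 18 h the logFC was 1.09±0.38 (adjusted p = 0.111), and with the replicate block it was called (1.09±0.19, adjusted p = 0.00905). At 24 h it was 0.94, with an adjusted p of 0.14, and 0.0122 with the block. Nrp2, the more abundant neuropilin, had 2.56±0.06 FPKM untreated and 2.10±0.27 after 24 h (adjusted p = 0.162).

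**Figure D4:**
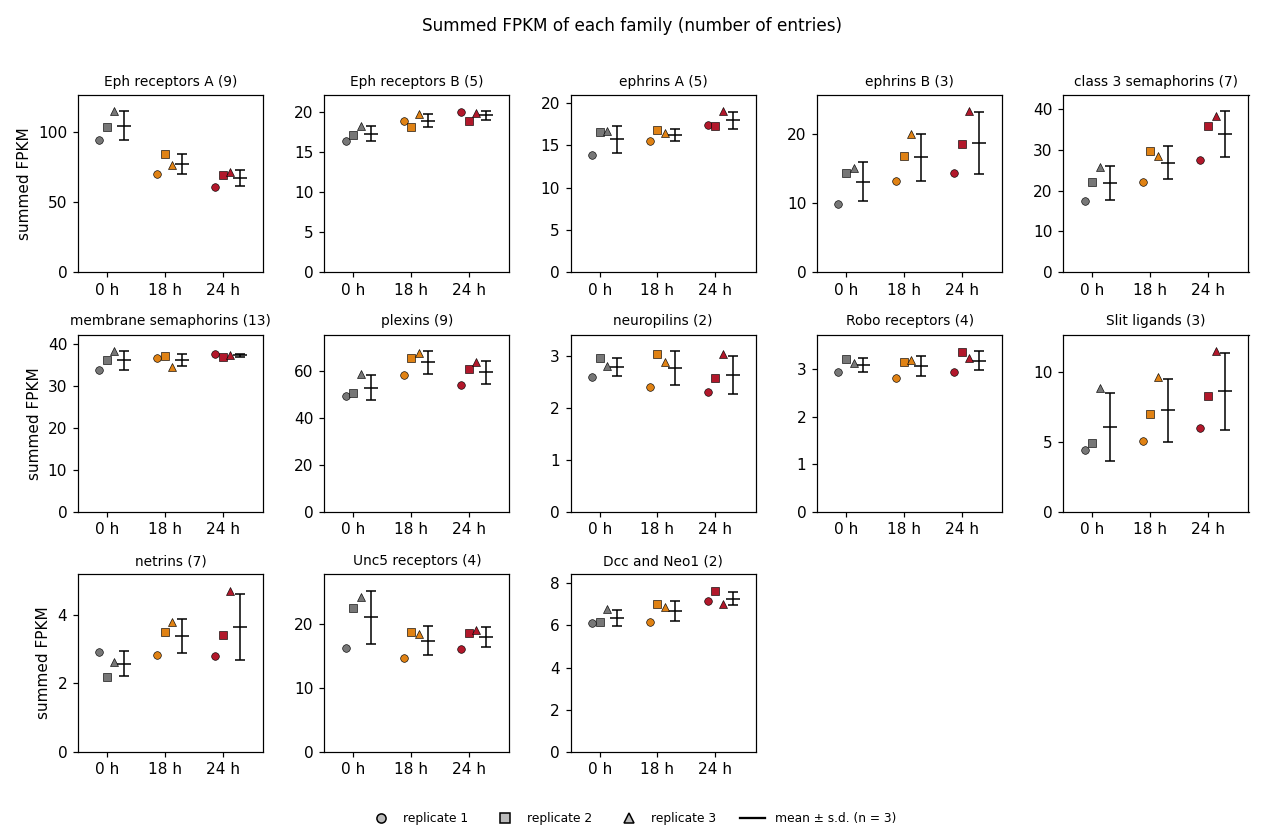
Summed FPKM of each guidance family in each library at 0, 18 and 24 h of dox, with markers for the replicates and bars for the mean±s.d. (n=3), each axis starting at 0. The EphA sum is lower in every dox library than in every untreated one, and the class 3 semaphorin sum is higher in every 24 h library.

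Of the Slit and Robo genes, Slit1 and Robo4 passed the adjusted p in limma without the block, in opposite directions. Slit2 did not pass it at 24 h (logFC 0.50±0.25, adjusted p = 0.23), but did in edgeR on the recovered reads (logFC 0.76, adjusted p = 0.0452). Slit1 had 0.333, 0.331 and 0.396 FPKM untreated, 0.591, 0.650 and 0.768 after 18 h, and 0.638, 0.953 and 0.806 after 24 h, a logFC of 0.98±0.19 at 24 h (adjusted p = 0.0149). Slit3, the abundant Slit, varied 2-fold between replicates of a time point, from 3.97 to 8.28 FPKM at 0 h and from 5.16 to 10.4 at 24 h, with replicate 1 lowest and replicate 3 highest each time. Its adjusted p at 24 h was 0.425, and 0.00994 with the replicate block, at a logFC of 0.46. Without the block, that logFC was 0.20 without 24 h replicate 3, 0.26 without 0 h replicate 1, 0.78 without 0 h replicate 3 and 0.70 without 24 h replicate 1. Robo4, a Robo relative of endothelial cells, had 0.541, 0.669 and 0.425 FPKM untreated, 0.266, 0.166 and 0.262 after 18 h, and 0.259, 0.238 and 0.241 after 24 h. Every dox library lay below every untreated one, on 17 to 27 reads against 38 to 66. The logFC was -0.96±0.23 at 18 h (adjusted p = 0.0381) and -0.88±0.23 at 24 h (adjusted p = 0.0408). Robo3 lies 0.553 kb from Robo4 on the opposite strand and had 0.126±0.018 FPKM untreated and 0.073±0.019 after 24 h, below the minimum for the test. Robo1, the main Robo of these cells, had 2.30±0.06 FPKM untreated and 2.72±0.19 after 24 h (adjusted p = 0.16).

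In limma without the block, none of the netrin, Unc5 and Dcc family members tested passed the adjusted p at either time. At 24 h, 6.52% of all genes were higher and 5.11% lower on it, so for so few genes this is near that share. Unc5c was below the minimum for the limma test. It was called higher in edgeR on the recovered reads without the block (adjusted p = 0.0104 at 18 h and 0.0174 at 24 h). Unc5c entered that edgeR test only through its dox libraries, where it was higher, so these calls are not read as support. Ntn1, which encodes netrin 1, had 2.17±0.25 FPKM untreated, 3.04±0.43 after 18 h and 3.31±0.95 after 24 h (adjusted p = 0.177 and 0.0998, the latter 0.0414 with the block). Unc5b, a netrin receptor that also serves in vessels, had 20.9±4.22, 17.1±2.31 and 17.8±1.63 FPKM, and made up 99.0% of the Unc5 sum. Its adjusted p at 18 h was 0.315, and 0.0287 with the block, at a logFC of -0.27. Neo1, which also binds repulsive guidance molecules, had 6.36±0.36, 6.68±0.48 and 7.27±0.33 FPKM. Dcc had 0 reads at 0 h, 6 at 18 h and 9 at 24 h, summed over 3 libraries, which is at least 1.98-fold and 2.76-fold over a floor of 3 reads over the group (lower 95% exact limits of the ratio 1.17 and 1.82, counting error only). Ntng1, a membrane-anchored netrin relative, had 0, 6 and 12 reads, at least 1.98-fold and 3.68-fold (lower limits 1.17 and 2.56). Ntng2 had 20, 7 and 18 reads untreated, 3, 9 and 1 after 18 h, and 6, 5 and 4 after 24 h. The 18 h libraries overlapped the untreated ones. The ratio of summed reads at 24 h was 0.307 (95% exact interval 0.159 to 0.561, counting error only). DESeq2 did not pass it at 24 h (adjusted p = 0.0821), and edgeR with the block called it lower at both times (adjusted p = 0.0242 at 18 h and 0.0218 at 24 h). Ntng2 was not among the genes tested in edgeR without the block. With the block, it entered the edgeR test only through untreated libraries, where it was highest, so that call is not read as support.

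The summed level of the ligands was higher at 24 h and that of the receptors lower, whereas the total differed by less than its spread. The 38 ligand entries summed to 95.3±12.5 FPKM untreated, 106.4±9.66 after 18 h and 120.1±14.4 after 24 h, and the 0 h and 24 h libraries overlapped. Within each replicate number the ligand sum was higher at 24 h, at 105.6 against 82.3, 120.3 against 96.3 and 134.5 against 107.3 FPKM. The 35 receptor entries summed to 207.6±20.5, 189.0±14.2 and 177.0±12.4 FPKM, and the highest 24 h library, 187.1, was just below the lowest untreated one, 188.0. All 73 came to 302.9±32.9 FPKM untreated and 297.1±26.6 after 24 h. Epha1 and Epha2 together went from 99.7±10.5 to 62.1±5.64 FPKM, and the other 33 receptor entries summed to 107.8±9.98 FPKM untreated and 114.9±6.75 after 24 h. The lower receptor sum therefore rested on these 2 genes. Of the 25 receptors tested, 16 had a logFC above 0 at 24 h and 9 below, with a median of 0.191 beside 0.004 for all genes tested. The share of all genes above 0 was not counted. These sums are descriptions and were not tested. In the untreated cells 35 members had a mean of at least 1 FPKM, and at 24 h 38 did, since Plxnd1, Epha7, Ephb2 and Efna1 crossed that level upwards and Epha8 downwards. In bulk RNA, more cells that express a gene and more RNA per cell cannot be told apart.

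No member was called at 24 h against 18 h, where 0.0167% of all genes were called higher and 0.00557% lower. In limma, 4 members had an unadjusted p under 0.05 and the smallest adjusted p was 0.696. DESeq2 and edgeR on recovered reads called 0 too, with 7 and 6 members at an unadjusted p under 0.05. In edgeR with the replicate block, Efnb1, Epha2, Sema3c and Sema3e had an adjusted p of at most 0.05 (the smallest 0.0039), and none of these 4 reached a logFC of 1 in size. The share of all genes at these p-values was not counted. The member counts on p alone are therefore descriptions and are not read as a result about the set.

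Count-based tests called more of the low members. edgeR on the recovered reads tested 63 members and called 7 higher and 1 lower at 18 h, against 2.3% and 1.22% of all genes it tested, and 9 higher and 1 lower at 24 h, against 3.2% and 1.38%. With Epha3 and Sema6d left out, 5 of 61 were called higher at 18 h and 7 of 61 at 24 h. These counts still hold Unc5c, which passed edgeR's own filter on low reads only through its dox libraries. The 5 members called by limma at 24 h were among the 9, and the others were Plxna2, Sema6d, Slit1 and Unc5c, with Robo4 the one called lower. Unc5c, a netrin receptor below the FPKM minimum, had 6 to 11 reads in the untreated libraries and 21 to 31 at 24 h (edgeR logFC 1.35, adjusted p = 0.0174). Sema6d had 7 to 23 reads at 0 h and 45 to 78 at 24 h (edgeR logFC 1.69, adjusted p = 0.00996). In limma its value at 24 h was 0.97±0.29 (adjusted p = 0.0625, and 0.0243 with the block). With a mean of 0.071 FPKM at 0 h and 0.234 at 24 h, it is the other member that entered that test only through its dox libraries.

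Of the 39 members with a mean of at least 1 FPKM, 21 (53.8%) had the same replicate lowest at all 3 time points, in 17 of them replicate 1, against 36.4% of the 11893 genes at that level. The same replicate was highest at all 3 time points in 9 of the 39 (23.1%), in 8 of them replicate 3, against 36.1% of those genes. With the replicate number as a block, 21 members were higher and 6 lower on the adjusted p alone at 24 h, against 13.6% and 12.5% of all genes, and 16 higher and 8 lower at 18 h, against 10.8% and 10.7%. With Epha3 and Sema6d left out, the higher counts were 19 of 54 at 24 h and 15 of 54 at 18 h. Without the block, groups that did not overlap were counted as well. At 24 h, 23 of 56 members had every dox library above every untreated one and 6 had every one below, against 16.7% and 14.6% of all genes, and at 18 h 20 and 9 did, against 14.4% and 13.7%. Without Epha3 and Sema6d, 21 of 54 were above at 24 h and 18 of 54 at 18 h.

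Some guidance genes outside these families were called higher as well. Of 19 other ligands, receptors and adhesion co-receptors, 17 were tested, and 7 were called higher and 0 lower at 24 h, beside the 2.07% and 0.836% of all genes, with a median logFC of 0.49. The 6 with the largest change were Draxin, a secreted protein that binds netrin and Dcc (2.21±0.32, adjusted p = 0.00408), the chemokine Cxcl12 (1.80±0.22, adjusted p = 0.00175), its receptors Cxcr4 (1.76±0.22, adjusted p = 0.00227) and Ackr3 (1.66±0.23, adjusted p = 0.00338), the adhesion molecule Nrcam (1.55±0.26, adjusted p = 0.00837) and the Neo1 ligand Rgma (1.36±0.24, adjusted p = 0.00874). Draxin went from 0.219±0.067 to 1.39±0.41 FPKM, Cxcl12 from 0.722±0.247 to 2.68±0.24 and Cxcr4 from 0.445±0.138 to 1.73±0.35. All stayed at a few FPKM at most. L1cam, a neural adhesion molecule, was lower on the adjusted p alone, at -0.68±0.16 at 18 h (adjusted p = 0.0303) and -0.59±0.16 at 24 h (adjusted p = 0.0408). Counted on the adjusted p alone, 9 of the 17 were higher and 1 was lower at 24 h, against 6.52% and 5.11% of all genes. Of 49 intracellular effectors of guidance receptors, 48 were tested and 1 was called, a share near the 2.07% of all genes called higher. It was Mical2, an actin-oxidising enzyme (1.25±0.20, adjusted p = 0.00607), and the median was 0.19. On the adjusted p alone, 9 of the 48 were higher and 1 lower, against 6.52% and 5.11% of all genes.

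Cell type markers were read beside these values. The 8 ESC markers summed to 1299 to 1975 FPKM at 0 h and 974 to 1586 at 24 h, with Tdgf1 called lower and none higher. On the adjusted p alone, Nanog was higher, from 40.6 to 73.4 FPKM (logFC 0.86, adjusted p = 0.00735), and Pou5f1 lower, from 371 to 248 FPKM (logFC -0.58, adjusted p = 0.022). The 6 neuronal markers summed to 67.3 to 81.0 FPKM at 0 h and 81.5 to 106.4 at 24 h, with none called, and Dcx, a marker of young neurons, stayed under 0.05 FPKM as a mean at each time point. Of these markers, Tubb3 had 41.5 FPKM untreated and 63.1 after 24 h (adjusted p = 0.0638), while Stmn2 had 27.9 and 23.2 FPKM and was lower on the adjusted p alone at 18 h (logFC -0.38, adjusted p = 0.0231). The 6 endothelial markers, read because of Robo4 and Plxnd1, summed to 4.11 to 7.71 FPKM at 0 h and 4.34 to 5.91 at 24 h, with none called. Tek and Flt1 were the highest of them, at 4.47 and 0.764 FPKM at 0 h and 3.5 and 1 FPKM at 24 h. Cdh5 and Erg, too low for the test, were at 0.057 and 0.049 FPKM at 0 h and 0.109 and 0.055 FPKM at 24 h. Fibroblast and primitive endoderm markers summed to 7.07 to 14.4 and 4.44 to 5.35 FPKM at 0 h and to 6.09 to 10.4 and 5.07 to 5.92 at 24 h, with none called, and Thy1 of the fibroblast list was lower on the adjusted p alone, from 2.08 to 1.21 FPKM (logFC -0.74, adjusted p = 0.0494). Every marker had a mean above 0 at each time point, and the part of other cell types in the guidance results was not tested.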

How the data were processed

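RNA was sequenced from 9 libraries, 3 at each of 0 h, 18 h and 24 h of dox, from stranded polyadenylated libraries of total RNA. The authors mapped reads to GRCm38 with STAR and, per the submitters' processing notes, used cutadapt 1.9 and edgeR 3.16.5. The annotation release and the handling of strand in counting are not given in the sources used here, so reads of overlapping antisense genes may not be separable. The authors deposited FPKM values for 47729 genes. They also deposited a filtered table of 19210 genes with a signal per library, proportional to its reads and adjusted for library size. Whole reads were recovered from that deposited signal by dividing each value by the worth of 1 read, and 100% of values came out within 0.01 of a whole number. Its columns of the authors' own comparisons (fold-changes, p-values and false discovery rates) were not used. No per-sample column was left unmatched.

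Time points came from sample titles, and a treatment note in the labels names other hours. The main test was limma 3.58.1 (lmFit, eBayes with trend) in R 4.3.3 on log2(FPKM+0.1), all 9 libraries, no block, with Benjamini–Hochberg adjustment over 17951 genes. edgeR 4.0.16 (quasi-likelihood) and DESeq2 1.42.0 on the recovered reads were alternatives, since the tables held no counts. The scripts were tested on simulated data. With 3 against 3 libraries no exact permutation test of 1 gene could pass the threshold, and none was run. Same-numbered libraries deviated together (9 pairs, mean r = 0.325, lowest 0.211; 18 other pairs, mean r = -0.161; 11893 genes), and the labels number the replicates 1 to 3 at each time point, so the numbers were taken to pair the libraries. Deviations were from the mean of each time point, which makes the other pairs negative when same-numbered pairs are positive. The main test did not use this pairing, and fits with the block are given as alternatives. No pair of replicates agreed within sampling noise (chi-square over degrees of freedom 5.39 to 16.3). p-values measure the spread between these replicates of 1 line.

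Members and lists were chosen with earlier results of these data known. Genes named are members past both thresholds in any comparison, with or without the block, the highest member of each family, the 10 highest members, and at most 6 called genes of each partner list. Others, among them those past the adjusted p alone, in edgeR only or on few reads, were chosen after their values were seen. Coordinates are from GENCODE M21, which held 71 of the 73 entries, and promoters from RefSeq (GRCm38.p6). Python 3.11.15, pandas 2.3.3, scipy 1.17.1 and matplotlib 3.10.9 made the tables and plots. Alternatives are given in the closing section.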

Additional observations from a re-analysis of the deposited data

How the results depend on the processing

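Plxnd1 and Efnb1 kept their direction in every setting run, Plxnd1 was called in all but the pseudocount of 1, and Efnb1 was called at 24 h in every setting. Members called at 18 h, 2 in the reported fit, numbered 8 in DESeq2 and in edgeR, 9 in edgeR with the block, 1 at a mean FPKM of at least 1, 4 and 0 at pseudocounts of 0.01 and 1, 12 with no minimum fold-change, and 1 to 3 when a library was left out (1 without 0 h replicate 1, 18 h replicate 2 or 18 h replicate 3, Epha3 being lost). Members called at 24 h, 5 in the reported fit, numbered 11 in DESeq2, 10 in edgeR, 12 in edgeR with the block, 3 at a mean FPKM of at least 1, 3 with median centring or quantile normalization, 8 and 1 at pseudocounts of 0.01 and 1, 16 with no minimum fold-change, and 3 to 10 when a library was left out (10 without 0 h replicate 3, Efna1, Epha7, Plxna2, Sema4c and Slit1 joining, Epha3 being lost and Robo4 called lower; 3 without 24 h replicate 2, Epha3 and Sema3f being lost). Partner genes called at 24 h, 8 in the reported fit, numbered 3, 1 and 20 at a mean FPKM of at least 1, a pseudocount of 1 and no minimum fold-change. Other counts stayed within 1.5 times. The causes of these shifts were not tested, except that a larger pseudocount shrinks and a smaller one widens the fold of low genes, and that the FPKM minimum removes low ones. Shares of all genes called are given above for the reported fit, edgeR without the block and the adjusted p alone. For the other settings they were not counted, so a larger member count there may go with more calls among all genes.

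With the replicate block, 3 members were called at 18 h (Nrp1, adjusted p = 0.00905, joining) and 5 at 24 h, and in limma the block changed no other call past both thresholds. In edgeR the block added Nrp1 at 24 h. Ntng2 was called lower at both times in edgeR with the block, but edgeR without it did not test this gene, so the call cannot be put down to the block alone. Ntng2 also entered that blocked test only through untreated libraries. Among the members named by rule, signs reversed for 3 whose change was under its error. Leaving out 1 library moved Efnb2 at 18 h from -0.0592 (without 0 h replicate 1) to 0.398, Slit3 at 18 h from -0.0245 (without 18 h replicate 3) to 0.546, Plxnb2 at 18 h from -0.0056 (without 0 h replicate 2) to 0.206, and Plxnb2 at 24 h from -0.0627 (without 24 h replicate 3) to 0.153. Efnb2 at 18 h was also below 0 without 18 h replicate 3 (-0.0383), and Plxnb2 at 24 h without 0 h replicates 1 (-0.0466) and 2 (-0.0586), in DESeq2 (-0.0047) and with median centring (-0.061). No scaling moved the median of all genes by over 0.1, the largest shift being -0.0768 (24 h, median centring). Depth limits members under 0.1 FPKM, which rest on few reads.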
